A study of Mus musculus with 6 samples.

Results

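The 10 genes described here carry amino acids and small peptides across membranes, and were followed in B cells sorted from mouse colon. They are, out of 20591 genes in the expression table, the peptide transporters Slc15a2 and Slc15a3, the heavy chain Slc3a2 with its light chains Slc7a5, Slc7a6 and Slc7a11, the neutral amino acid transporters Slc1a5, Slc38a1 and Slc38a2, and the cationic transporter Slc7a1. They were matched by symbol and were chosen from earlier results of the same contrast between lenvatinib and DMSO. Their differences are therefore given as a description with no p-value. The study compared 3 libraries from mice given lenvatinib, an inhibitor of receptor tyrosine kinases such as those for VEGF and FGF, with 3 libraries from mice given DMSO, its solvent. All 6 libraries are labelled as B cells. The labels name no strain, genotype, age, dose or duration and no inflammatory state, although the series title concerns colitis and B cell trafficking into the gut. The titles call the 3 libraries of a group biological replicates. Separate animals or pools are not stated, so errors and p-values measure the variation among these libraries, and how much of it is technical is not known.

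Amino acid transporters of the plasma membrane work as a network. Sodium-driven carriers load the cell with glutamine and other neutral amino acids, and exchangers trade these for leucine and other essential amino acids, which the kinase complex mTORC1 senses. The exchanger light chains reach the surface only when joined to the heavy chain encoded by Slc3a2, also known as CD98. Lymphocytes that are activated need large amounts of amino acids, and a shortage of them is read through the transcription factor ATF4. Peptide transporters of the SLC15 family move di- and tripeptides, and also bacterial muropeptides, together with protons.

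Gene-assigned reads numbered 27605518 to 31655500 per lenvatinib library and 26635279 to 31238096 per DMSO library. Expression is given as FPKM, fragment counts corrected for gene length and sequencing depth, after a scaling between libraries by factors of 0.992 to 1.009, and every value after ± is an SD over n = 3 libraries. Log2 differences are lenvatinib minus DMSO on the log2(scaled FPKM + 1) scale, which understates the differences of low genes. The test took in the 9937 genes that reached 1 scaled FPKM in 3 or more of the 6 libraries, among them 9 of the 10 transporters. Slc7a11 was below that level. Slc15a2 passed it only through its lenvatinib libraries, so a large difference was close to a condition of its being tested. B cell markers were abundant in every library, with a sum over 10 genes of 2140 to 2180 scaled FPKM in lenvatinib libraries and 2580 to 2620 in DMSO libraries.

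Slc7a11 and some genes of the ATF4 response have a promoter element in common, shown here because that response is described below. ATF4 binds composite elements with the core TGATGNAA, which was searched on both strands from 250 bases before to 50 bases after the annotated start in RefSeq promoters of GRCm38.p6, an older build than the GRCm39 of the expression table. Of the 10 transporters 6 were in the promoter set, and 1 of these, Slc7a11, held the core, against 1304 of all 32851 promoters (3.97 percent). Its 2 matches begin 66 and 47 bases before the start and lie on opposite strands. Among 18 genes of the ATF4 response in that set, 6 held it, namely Asns, Chac1, Nupr1, Pycr1, Trib3 and Vldlr. The stretches below are read 5′ to 3′ along the gene, hold no base past its start, and have the core in capitals. The core begins 193 bases before the start in Chac1 and 23 bases before it in Asns. They lie at chr3:50443614-50443863 on the minus strand for Slc7a11, chr2:119351019-119351086 on the plus strand for Chac1 and chr6:7693210-7693262 on the minus strand for Asns. A match is a string of letters and not a measured binding site. The E-box CACGTG, searched in the same windows, was in 7.15 percent of all promoters and in 0 of the 6 transporter promoters.
Slc7a11: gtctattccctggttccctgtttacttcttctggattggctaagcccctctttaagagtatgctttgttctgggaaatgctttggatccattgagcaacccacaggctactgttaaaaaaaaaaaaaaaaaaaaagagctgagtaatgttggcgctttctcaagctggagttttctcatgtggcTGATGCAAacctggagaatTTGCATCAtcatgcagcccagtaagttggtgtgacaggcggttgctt
Chac1: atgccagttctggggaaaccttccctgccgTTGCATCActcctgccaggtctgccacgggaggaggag
Asns: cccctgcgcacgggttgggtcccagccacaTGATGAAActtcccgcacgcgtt

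Both peptide transporters were higher in lenvatinib libraries, by very different factors. Slc15a2 encodes PEPT2, a high-affinity carrier of di- and tripeptides at the cell surface. It had 5.25, 4.60 and 4.75 scaled FPKM in lenvatinib libraries 1, 2 and 3, against 0.107, 0.0983 and 0.384 in DMSO libraries 1, 2 and 3. The groups were far apart, and DMSO library 3 stood above the other 2 DMSO libraries. The means were 4.87 ± 0.338 in lenvatinib and 0.196 ± 0.162 in DMSO libraries, a 24.8-fold ratio and a log2 difference of 2.30 (SE 0.13). That difference was the ninth largest in size among the tested genes, with 0.0805 percent of them larger.

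The low level of Slc15a2 in DMSO libraries rested on few reads. Lenvatinib libraries held 712, 570 and 560 reads of the gene, against 12, 13 and 49 reads in DMSO libraries. The exact Poisson 95 percent intervals, which cover counting error only, were 0.0552 to 0.186, 0.0523 to 0.168 and 0.284 to 0.507 scaled FPKM in DMSO libraries 1, 2 and 3, so that of library 3 lay above the others. The coefficient of variation between DMSO libraries was 82.7 percent, against 24.5 percent from counting alone. Because the DMSO level is close to the added constant, the log2 difference was 4.196 with a pseudocount of 0.1 and 4.89 in limma-voom on the recovered reads, while its direction held in each of 15 alternative settings in which the gene was fitted.

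Slc15a3 encodes PHT2, a peptide and histidine carrier of lysosomes and endosomes. It had 36.2, 34.4 and 34.0 scaled FPKM in lenvatinib libraries and 26.5, 25.6 and 27.3 in DMSO libraries. All lenvatinib libraries lay above all DMSO libraries, with means of 34.9 ± 1.19 in lenvatinib and 26.5 ± 0.834 in DMSO libraries and a log2 difference of 0.39 (SE 0.0485). Its lysosomal relative Slc15a4 had 12.7 ± 0.446 in lenvatinib and 13.5 ± 0.242 in DMSO libraries and did not pass the test (log2 difference −0.08, SE 0.0583, limma adjusted p = 0.399). All lenvatinib libraries of Slc15a4 nevertheless lay slightly below all DMSO libraries. The ratio of Slc15a3 to Slc15a4 was 2.75 ± 0.12 in lenvatinib and 1.97 ± 0.0393 in DMSO libraries. Its groups could not overlap, given the values of the single genes, so the ratio is no further result. The intestinal peptide transporter Slc15a1 was near 0 throughout, at 0.011 scaled FPKM in lenvatinib library 2 and listed at 0 in the other libraries.

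**Figure D1:**
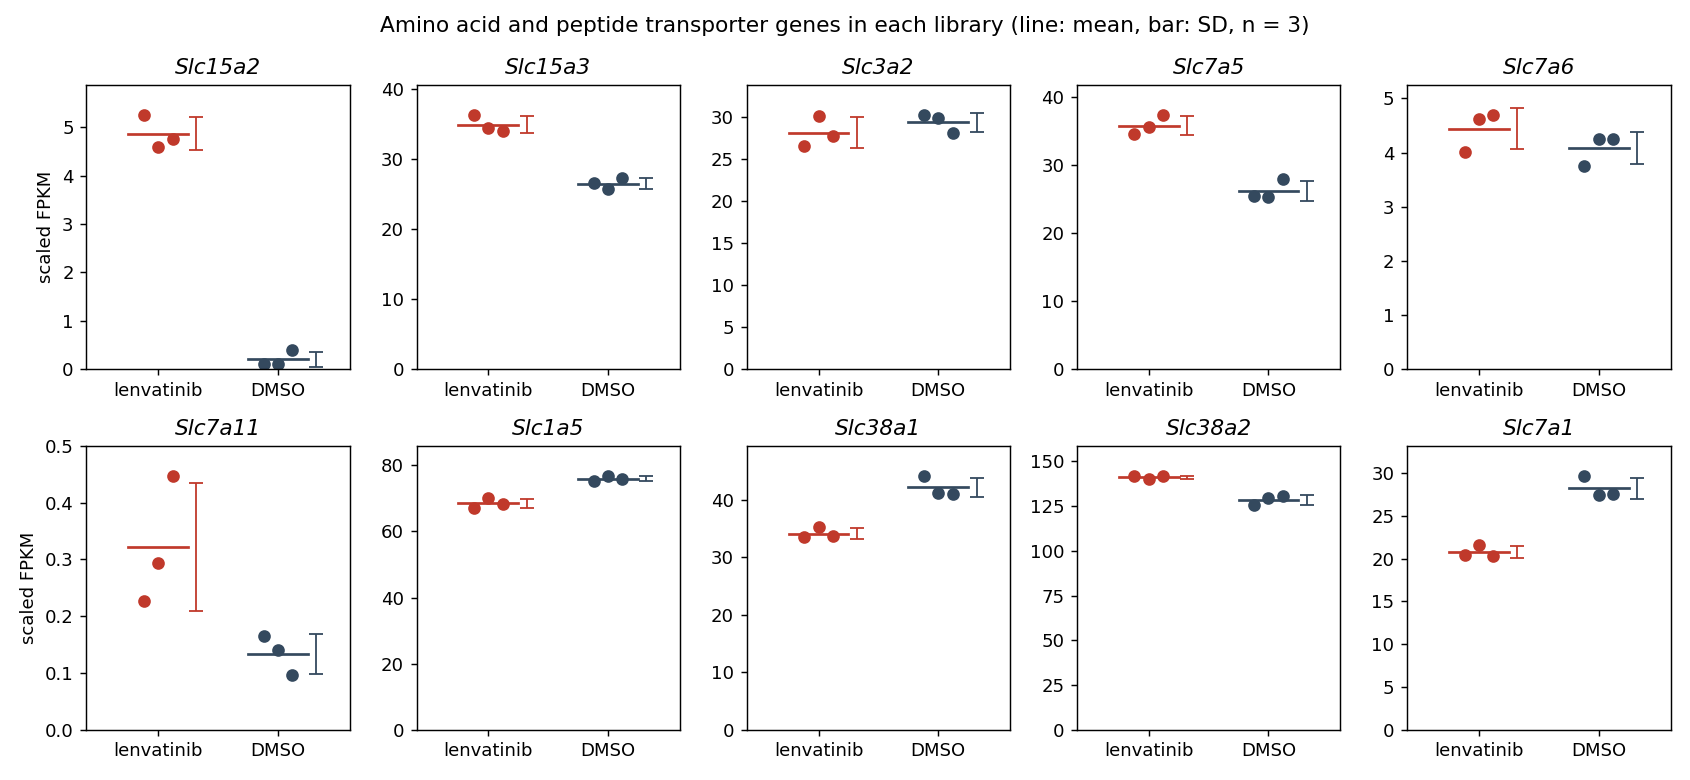
Scaled FPKM of the 10 transporters in each library, with lenvatinib libraries on the left and DMSO libraries on the right of each panel. Points are libraries, lines are means and bars are SDs (n = 3). Slc15a2 stands at 4.60 to 5.25 in lenvatinib libraries and at 0.0983 to 0.384 in DMSO libraries, while the groups of Slc3a2 and Slc7a6 overlap.

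The heavy chain and its light chains did not move alike. Slc3a2, which brings the light chains to the surface, had 26.5, 30.1 and 27.7 scaled FPKM in lenvatinib libraries and 30.1, 29.8 and 28.0 in DMSO libraries. Its groups overlapped, with means of 28.1 ± 1.83 in lenvatinib and 29.3 ± 1.16 in DMSO libraries (log2 difference −0.06, SE 0.0587). Slc7a5, also called LAT1, is the light chain that imports leucine and other large neutral amino acids in exchange for glutamine. It had 34.5, 35.7 and 37.4 scaled FPKM in lenvatinib libraries and 25.4, 25.3 and 28.0 in DMSO libraries. Here the groups were apart, with means of 35.9 ± 1.42 in lenvatinib and 26.2 ± 1.52 in DMSO libraries and a log2 difference of 0.44 (SE 0.0556). Of the tested genes 6.06 percent had a larger difference in size.

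Slc7a6, a light chain that exchanges cationic for neutral amino acids, had 4.01, 4.62 and 4.69 scaled FPKM in lenvatinib libraries and 3.75, 4.25 and 4.25 in DMSO libraries. The ranges overlapped and the log2 difference was 0.10 (SE 0.0933). Slc7a11, or xCT, imports cystine in exchange for glutamate and so feeds glutathione synthesis. It had 0.227, 0.293 and 0.447 scaled FPKM in lenvatinib libraries, against 0.166, 0.141 and 0.0959 in DMSO libraries. The groups did not overlap, but the gene was near the lower end of detection, with 68, 80 and 116 reads in lenvatinib and 41, 41 and 27 reads in DMSO libraries. Means were 0.322 ± 0.113 in lenvatinib and 0.134 ± 0.0353 in DMSO libraries. The 95 percent counting intervals of lenvatinib library 1, 0.177 to 0.288, and of DMSO library 1, 0.119 to 0.224, overlapped. Gclc and Gclm, the subunits of the enzyme that starts glutathione synthesis, did not pass, with 24.4 ± 0.424 and 3.40 ± 0.478 in lenvatinib libraries and 23.9 ± 1.68 and 3.14 ± 0.498 in DMSO libraries (limma adjusted p = 0.754 for Gclc and 0.673 for Gclm). These subunits were picked after seeing their values.

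Of the light chains outside the chosen genes, Slc7a7 had 2.35 ± 0.419 scaled FPKM in lenvatinib and 2.40 ± 0.239 in DMSO libraries, and it did not pass (log2 difference −0.03, SE 0.124, limma adjusted p = 0.902). Slc7a8 had 0.0967 ± 0.0343 in lenvatinib and 0.0777 ± 0.0858 in DMSO libraries. Slc3a1, the heavy chain of the cystine carrier of kidney and gut, had 0.0987 ± 0.0902 in lenvatinib and 0.123 ± 0.136 in DMSO libraries. The sum of the light chains Slc7a5, Slc7a6, Slc7a7, Slc7a8 and Slc7a11 over Slc3a2 was 1.564, 1.442 and 1.604 in lenvatinib libraries, against 1.063, 1.08 and 1.233 in DMSO libraries. These ratios of FPKM were higher in each lenvatinib library than in any DMSO library, with Slc7a5 as the largest term. They are not molar ratios, because the gene length that the deposited values imply for Slc3a2, 9333 bases, exceeds the 2813 bases of its longest coding transcript in GENCODE M21. For Slc7a6 these lengths are 12888 and 3750 bases. On the coding transcript length Slc3a2 would stand at 93.1 scaled FPKM in lenvatinib and 97.3 in DMSO libraries. The ratio between the group means of Slc3a2 does not depend on that length. In the light chain sum, however, the weight of Slc7a6 depends on its own length. Both implied lengths also exceed all annotated exons in GENCODE M21, 3529 bases for Slc3a2 and 4570 bases for Slc7a6. Which sequence they cover is not known.

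**Figure D2:**
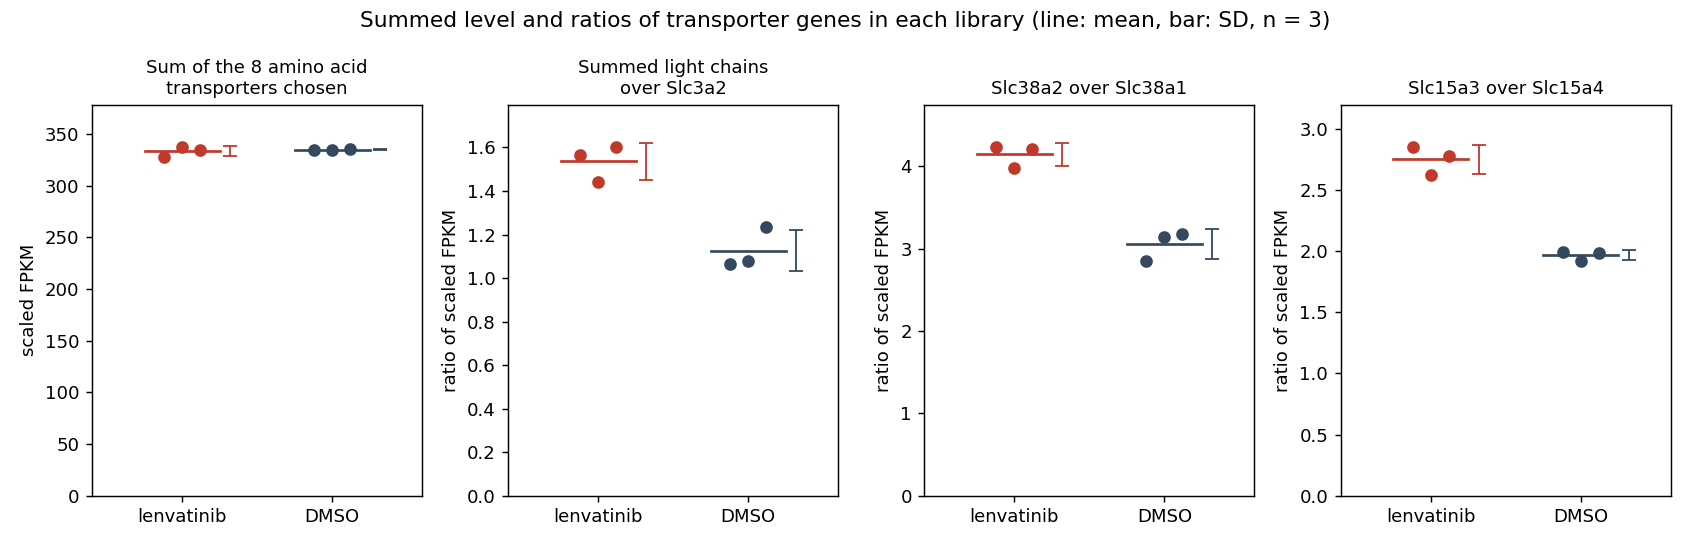
Sum of the 8 amino acid transporters in scaled FPKM (first panel) and ratios between transporters (other panels) in each library, with lenvatinib on the left and DMSO on the right, points for libraries, lines for means and bars for SDs (n = 3). The ratio of Slc38a2 to Slc38a1 averages 4.14 in lenvatinib and 3.05 in DMSO libraries. Its groups do not overlap, which follows from the opposite directions of both genes, chosen from this contrast.

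The glutamine and neutral amino acid transporters divided by direction. Slc1a5, or ASCT2, exchanges glutamine with other neutral amino acids. It had 67.2, 70.0 and 68.3 scaled FPKM in lenvatinib libraries and 75.3, 76.8 and 75.8 in DMSO libraries. The lenvatinib libraries were all lower, by a small step, with means of 68.5 ± 1.41 in lenvatinib and 76.0 ± 0.726 in DMSO libraries (log2 difference −0.15, SE 0.034). Slc38a1, or SNAT1, takes up glutamine with sodium. It had 33.4, 35.3 and 33.7 in lenvatinib libraries and 44.1, 41.3 and 41.1 in DMSO libraries. Again all lenvatinib libraries were lower, with means of 34.1 ± 0.996 in lenvatinib and 42.2 ± 1.71 in DMSO libraries (log2 difference −0.30, SE 0.0472).

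Slc38a2, or SNAT2, a close relative of Slc38a1 whose transcript is known to be induced when amino acids are short, went the other way. It had 141.7, 140.3 and 141.8 scaled FPKM in lenvatinib libraries and 125.5, 129.3 and 130.5 in DMSO libraries. The lenvatinib libraries were all higher, with means of 141.2 ± 0.855 in lenvatinib and 128.4 ± 2.6 in DMSO libraries (log2 difference 0.14, SE 0.0286). The ratio of Slc38a2 to Slc38a1 was 4.24, 3.98 and 4.21 in lenvatinib libraries and 2.85, 3.14 and 3.18 in DMSO libraries. That separation follows from the opposite directions of these chosen genes and is no further result. Slc1a4, the neutral amino acid carrier closest to Slc1a5, was low, with 0.967 ± 0.209 in lenvatinib and 0.507 ± 0.206 in DMSO libraries, and was not tested.

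Slc7a1, or CAT1, brings in arginine and lysine. It had 20.4, 21.5 and 20.3 scaled FPKM in lenvatinib libraries and 29.6, 27.4 and 27.5 in DMSO libraries. The lenvatinib libraries were all lower, with means of 20.7 ± 0.697 in lenvatinib and 28.2 ± 1.25 in DMSO libraries and a log2 difference of −0.43 (SE 0.0534), about as large in size as that of Slc7a5. Summed over the 8 amino acid transporters among the chosen genes, expression was 328.0, 337.7 and 334.2 scaled FPKM in lenvatinib libraries and 334.1, 334.3 and 335.2 in DMSO libraries. The sums overlapped, while single genes within them were higher or lower.

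**Figure D3:**
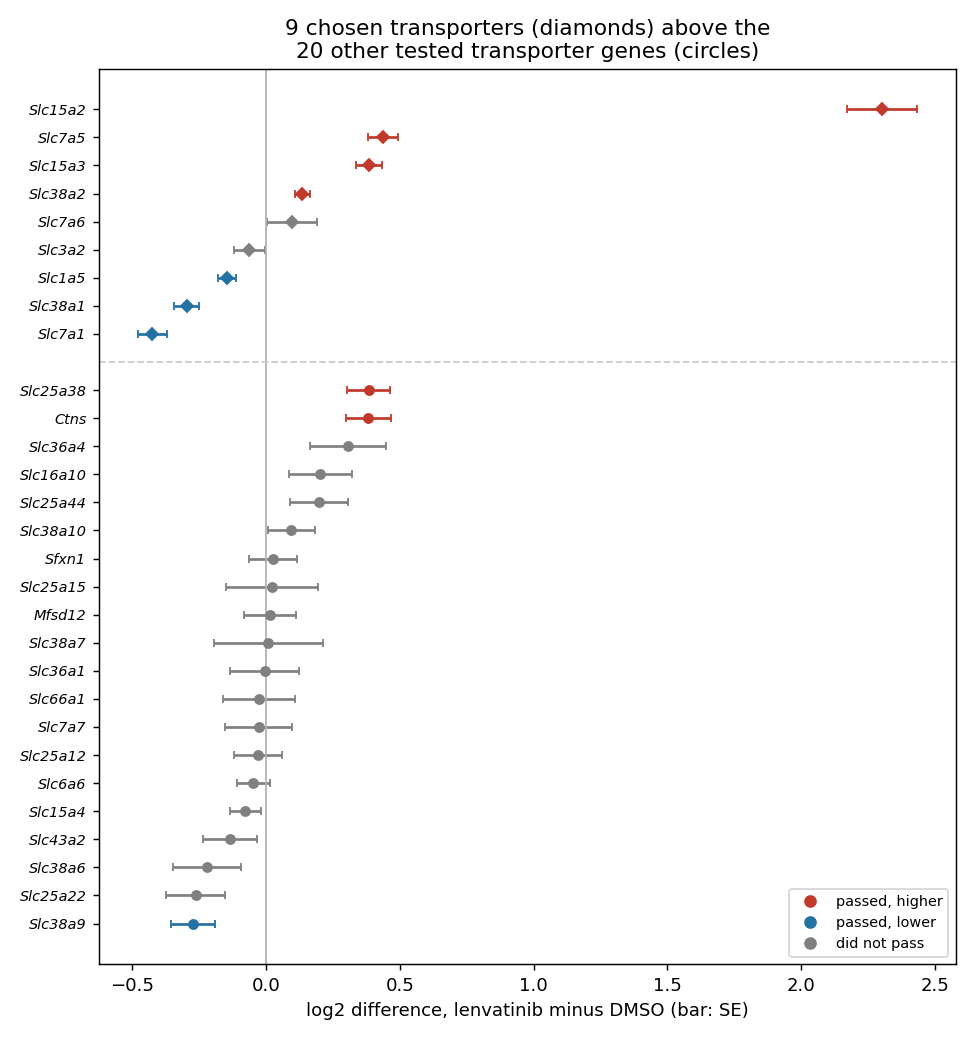
Log2 difference, lenvatinib minus DMSO, of the 9 tested transporters among the chosen genes (diamonds) and of the 20 other tested transporters (circles), with the standard error as the bar and colours for calls at a limma adjusted p below 0.05. Slc15a2 stands at 2.30, and all other points lie between −0.43 for Slc7a1 and 0.44 for Slc7a5.

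By level, Slc38a2 was the most abundant of the 10 in both groups, followed by Slc1a5. In lenvatinib libraries Slc7a5, Slc15a3 and Slc38a1 came next with overlapping ranges between 33.4 and 37.4 scaled FPKM, then Slc3a2 and Slc7a1, then Slc15a2 and Slc7a6, whose ranges overlapped, and last Slc7a11. In DMSO libraries Slc38a1 came after these, and the next 4, Slc3a2, Slc7a1, Slc15a3 and Slc7a5, lay between 25.3 and 30.1 scaled FPKM, where Slc3a2 and Slc7a1 overlapped and so did Slc15a3 and Slc7a5. Slc7a6 followed, and Slc15a2 and Slc7a11 were lowest with overlapping ranges. Slc15a2 thus ranked eighth of 10 in lenvatinib libraries and ninth of 10 in DMSO libraries, and this order depends on the gene lengths behind the FPKM, as given for Slc3a2 and Slc7a6.

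In the fit over all 9937 genes, 4 of the 9 tested transporters were called higher with lenvatinib and 3 lower at a limma adjusted p below 0.05. Of all tested genes 10.4 percent were called higher, 8.21 percent lower and 18.7 percent in either direction. The groups did not overlap for 4 transporters above and 3 below, while 37.1 percent of all tested genes had no overlap in either direction. The median log2 difference was 0.10 over the 9 transporters and 0.01 over all tested genes, and the median size was 0.30 and 0.12. Since the genes were chosen from this contrast, nothing is read from these counts. The calls of Slc1a5 and Slc38a2, both of small size, were lost in limma with neither trend nor robust moderation, and that of Slc1a5 also without lenvatinib library 1 and without DMSO library 2, where the log2 difference of Slc1a5 stayed between −0.16 and −0.13 over all single libraries left out.

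The transporters were measured in libraries that also differed in markers of other cell types. Markers of T cells summed to 97.5 to 103 scaled FPKM over 10 genes in lenvatinib libraries, against 23.1 to 25.7 in DMSO libraries, and 5 of 8 tested genes rose. In lenvatinib libraries Cd3g, Cd3d, Cd3e and Cd8a were the largest terms. Cd4, Cd5 and Cd8b1 did not pass, with means of 1.27, 1.33 and 1.39 in lenvatinib and 1.25, 1.22 and 1.76 in DMSO libraries. Natural killer and innate lymphoid markers summed to 104 to 111 over 11 genes in lenvatinib and 23.8 to 25.6 in DMSO libraries, and 8 of 8 tested genes rose, while Eomes was below 1 in every library. Klrb1c, among these 8, was below 1 in all DMSO libraries. Colon epithelial markers summed to 54.1 to 57.2 over 10 genes in lenvatinib and 13 to 13.8 in DMSO libraries, and 6 of 6 tested genes rose, with Krt20, Vil1 and Muc2 below 1 everywhere. Of these 6, Krt8, Krt19 and Cdh1 were below 1 in all DMSO libraries. Such genes passed the filter only through their lenvatinib libraries, so their rise was nearly fixed by the filter, and they were named after their values were seen. Of the B cell markers 9 of 10 fell. Macrophage and dendritic cell markers, by contrast, summed to 64.1 to 72.8 over 13 genes in lenvatinib and 56.8 to 57.7 in DMSO libraries, with 1 of 11 tested genes called. Among the markers no gene was at 0 in all libraries. In sorted bulk samples, fewer cells of a type and less RNA per cell cannot be told apart.

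The T cell, natural killer and epithelial sums were 4.03, 4.38 and 4.17 times as high in lenvatinib as in DMSO libraries, against 24.8 times for Slc15a2. Of 92 marker genes with any DMSO value, 1 had a larger ratio of means than Slc15a2. This was Krt20, named after its values were seen, with 0.862 ± 0.17 in lenvatinib and 0.00551 ± 0.00954 in DMSO libraries. Slc15a2 relative to the T cell sum was 0.0512, 0.0472 and 0.0474 in lenvatinib libraries, against 0.00415, 0.00382 and 0.0166 in DMSO libraries. In DMSO library 3, where Slc15a2 was higher than in the other DMSO libraries, the T cell sum was 23.1, the lowest of the 6 libraries. Single genes of that sum went both ways. In DMSO libraries 1, 2 and 3, its largest term Cd3g had 8.51, 9.22 and 6.94 scaled FPKM, while Cd3e had 2.35, 2.65 and 2.79. Single markers of other cells also went both ways in DMSO library 3. In DMSO libraries 1, 2 and 3, Gzma had 2.62, 3.65 and 5.94 scaled FPKM and Kit 1.59, 1.17 and 2.48. Retnlg, of the neutrophil list, had 0.0623, 0 and 1.37 in the same libraries. Klrd1 had 6.60, 5.25 and 4.03 in them, and Il22 had 2.70, 2.78 and 1.86. These single markers, Cd3g and Cd3e included, were picked after seeing their values. The part of these cell types in the difference of any transporter was not tested.

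**Figure D4:**
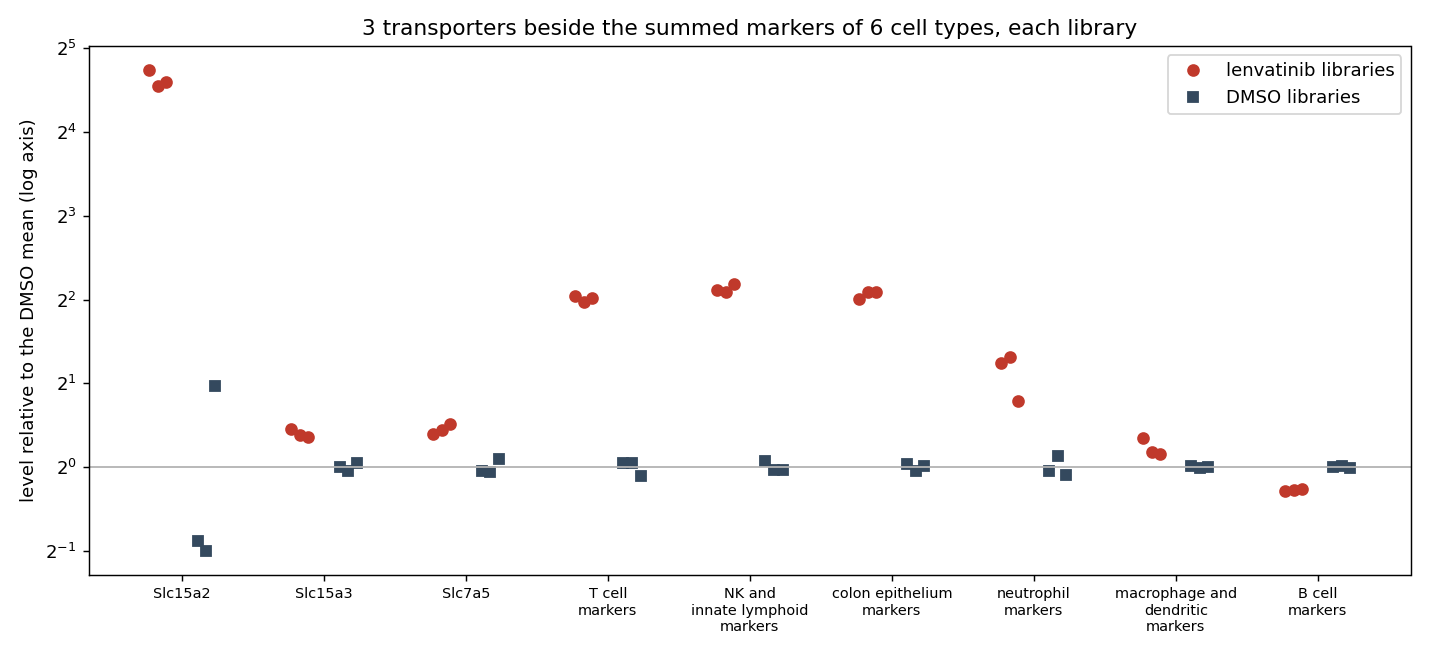
Slc15a2, Slc15a3 and Slc7a5 beside the summed markers of 6 cell types, each library divided by the DMSO mean, on a log axis (lenvatinib libraries left of DMSO libraries). The T cell sum is 4.03 times and the B cell sum 0.827 times as high in lenvatinib as in DMSO libraries, and Slc15a2 lies far above these.

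Genes whose profile over the 6 libraries was most like that of Slc15a2 were ranked by the root mean square difference of centred log2(scaled FPKM + 1) values. The nearest were Cd3e, a chain of the T cell receptor complex, at 0.108, and Ctsw, a cysteine protease known from cytotoxic lymphocytes, at 0.119. They were followed by the granule protease Gzmb at 0.185, the chemokine Ccl5 at 0.186 and the surface protein Cd7 at 0.199. The likeness holds on that scale only, and it largely reflects a group difference of similar size. These genes had log2 differences of 2.048 to 2.345, against 2.301 for Slc15a2, which was chosen from that contrast. Whether they are expressed in the same cells as Slc15a2 was not tested. Cd3e had 15.8 ± 0.306 scaled FPKM in lenvatinib and 2.60 ± 0.227 in DMSO libraries, a 6.09-fold ratio against 24.8-fold for Slc15a2. For Slc7a5 the nearest were Plscr1, a phospholipid scramblase, at 0.0286, Ptpn22, a tyrosine phosphatase of lymphocytes, at 0.033, and Cacybp, Msto1 and Zfp207 at 0.0418 to 0.0422. Ptpn22 had 27.5 ± 0.363 in lenvatinib and 20.2 ± 0.745 in DMSO libraries. The genes most like Slc7a5 had log2 differences of 0.422 to 0.518, against 0.437 for Slc7a5, so the same limit holds for them.

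The other amino acid and peptide transporters were taken by family. Of 61 such genes listed, 47 were in the table and 20 were tested. Of these 20, 2 rose, 1 fell and 17 did not pass, where 10.4 percent of all tested genes were called higher and 8.21 percent lower. The 20 had a median log2 difference of 0.00, against 0.01 over all tested genes. Ctns, which exports cystine from lysosomes, rose to 6.84 ± 0.64 scaled FPKM in lenvatinib libraries, against 5.01 ± 0.0926 in DMSO libraries (log2 difference 0.38, SE 0.0838, limma adjusted p = 0.0131). Slc25a38, a glycine carrier of mitochondria, rose to 8.36 ± 0.529 in lenvatinib libraries, against 6.18 ± 0.397 in DMSO libraries (log2 difference 0.38, SE 0.0796, limma adjusted p = 0.00994). Each was higher in 3 of 3 lenvatinib libraries than in any DMSO library. They were measured beside T cell markers at 97.5 to 103 in lenvatinib and 23.1 to 25.7 in DMSO libraries, and the part of other cells was not tested.

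Slc38a9, the lysosomal arginine sensor that signals to mTORC1, fell to 5.39 ± 0.21 scaled FPKM in lenvatinib libraries, against 6.73 ± 0.536 in DMSO libraries (log2 difference −0.27, SE 0.0821, limma adjusted p = 0.0481). All lenvatinib libraries were lower than all DMSO libraries. The call was close to the threshold and was lost without any 1 of lenvatinib libraries 1, 2 and 3 and DMSO libraries 2 and 3 (limma adjusted p = 0.078, 0.106, 0.12, 0.113 and 0.147).

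Genes of the ATF4 amino acid response were higher with lenvatinib in part. Of 16 tested genes of 19 listed, 7 rose and 9 did not pass, with a median log2 difference of 0.24, against 0.01 over all tested genes and 10.4 percent of these called higher. This list was also chosen with earlier results of these data known, so its share called is a description and not a test of the response. Atf4, the transcription factor itself, had 369.6, 377.7 and 378.0 scaled FPKM in lenvatinib libraries and 323.3, 328.2 and 322.5 in DMSO libraries. Each lenvatinib library was higher than any DMSO library (log2 difference 0.21, SE 0.0246, limma adjusted p = 0.000444). Mthfd2, a mitochondrial enzyme of folate metabolism, rose to 22.3 ± 1.29 in lenvatinib libraries, against 16.4 ± 0.254 in DMSO libraries (log2 difference 0.42, SE 0.0574, limma adjusted p = 0.00103). Phgdh, the first enzyme of serine synthesis, rose to 32.9 ± 1.31 in lenvatinib libraries, against 25.7 ± 0.765 in DMSO libraries (log2 difference 0.35, SE 0.05, limma adjusted p = 0.00135).

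Chac1, which breaks down glutathione and carries the ATF4 core printed above, rose to 1.53 ± 0.128 scaled FPKM in lenvatinib libraries, against 0.595 ± 0.25 in DMSO libraries (log2 difference 0.68, SE 0.145, limma adjusted p = 0.0115). Chac1 was below 1 in all DMSO libraries and passed the filter on low values only through its lenvatinib libraries. Its rise was thus nearly fixed by the filter, although it is counted among the 7 genes that rose. Asns, the asparagine synthetase that also carries the core and was named for it, had 1.77, 1.77 and 1.21 in lenvatinib libraries and 0.733, 1.16 and 0.851 in DMSO libraries, and did not pass (log2 difference 0.43, limma adjusted p = 0.0736). Of the other genes of this response with the core, Trib3 did not pass (limma adjusted p = 0.0651), and Nupr1, Pycr1 and Vldlr were not tested. Chac1 was thus the only gene with the core that was called, and the others that rose were not among those with it. Because of the filter, nothing about the core is read from the call of Chac1. The number of amino acid response genes called higher was 4 without lenvatinib library 2 and 4 to 6 over all single libraries left out. The part of the higher T cell, natural killer and epithelial markers in these counts was not tested.

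**Figure D5:**
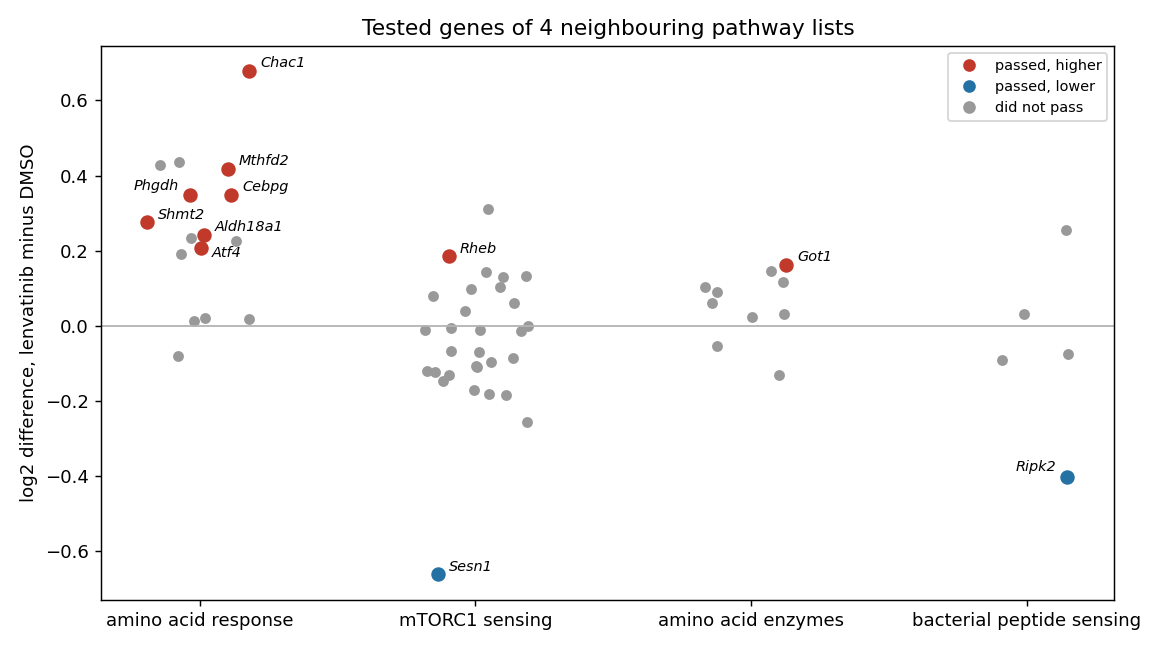
Log2 difference, lenvatinib minus DMSO, of every tested gene in lists of the amino acid response, mTORC1 sensing, amino acid enzymes and bacterial peptide sensing. Red points rose and blue points fell at a limma adjusted p below 0.05, and grey points did not pass. In the amino acid response list 7 of 16 rose, and in the mTORC1 list the lowest point is Sesn1 at −0.66.

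Sesn1 had the lowest p among genes of the machinery that reports amino acids to mTORC1. Of 30 tested genes 1 rose, 1 fell and 28 did not pass, where 18.7 percent of all tested genes were called in either direction. The median log2 difference of the 30 was −0.04, against 0.01 over all tested genes. Sesn1, a sestrin that restrains mTORC1 when leucine is short, had 47.3, 46.2 and 52.3 scaled FPKM in lenvatinib libraries and 77.1, 76.9 and 78.1 in DMSO libraries. Its groups were wide apart (log2 difference −0.66, SE 0.0489, limma adjusted p = 2.62e-05). Rheb, the small GTPase that activates mTORC1, rose to 69.7 ± 1.42 in lenvatinib libraries, against 61.3 ± 3.64 in DMSO libraries (log2 difference 0.19, SE 0.047, limma adjusted p = 0.0246). That call was lost without any 1 of lenvatinib libraries 1, 2 and 3 and DMSO libraries 1 and 3 (limma adjusted p = 0.057, 0.0546, 0.0718, 0.0839 and 0.079).

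Among enzymes of amino acid metabolism 1 of 10 tested genes rose and 9 did not pass, a share near the 10.4 percent of all tested genes called higher. Got1, the cytosolic aspartate aminotransferase, had 98.8 ± 2.94 scaled FPKM in lenvatinib and 88.2 ± 3.15 in DMSO libraries (log2 difference 0.16, SE 0.0386, limma adjusted p = 0.0183). Its call was lost without lenvatinib library 2, DMSO library 2 or DMSO library 3 (limma adjusted p = 0.0626, 0.0615 and 0.0648). A further list concerned the sensing of bacterial peptides, the cargo that SLC15 carriers can bring to the cytosol. Its 5 tested genes were Nod1, Ripk2, Xiap, Tasl and Irf5, not all of them sensors, and Nod2 was not tested. Of these 5, 1 fell and 4 did not pass, where 18.7 percent of all tested genes were called in either direction. The gene that fell was Ripk2, the kinase that acts below the receptors NOD1 and NOD2. Ripk2 had 20.8, 21.6 and 17.4 scaled FPKM in lenvatinib libraries and 28.2, 26.9 and 24.8 in DMSO libraries. Each lenvatinib library was lower than any DMSO library (log2 difference −0.40, SE 0.083, limma adjusted p = 0.00961). In these libraries B cell markers were lower and those of T cells, natural killer cells and epithelium higher, with the sums given above, and their part in the 4 calls of these lists was not tested.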

How the data were processed

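RNA sequencing libraries of sorted colon B cells were compared between 3 lenvatinib and 3 DMSO samples. TRIzol was used for RNA extraction and a VAHTS Universal V10 kit for the libraries, per the labels' protocols. HTSeq is the counting tool and GRCm39 the genome build, per the submitters' processing notes. Aligner, annotation, HTSeq version and strand setting are not given in the sources used here. Values were deposited by the authors as FPKM in 1 table, and its 6 value columns are named in the sample descriptions.

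FPKM were scaled by median-of-ratios factors. The values log2(scaled FPKM + 1) were fitted in limma 3.58.1 (R 4.3.3) with a trend and robust moderation, two-sided, with Benjamini-Hochberg adjustment over all 9937 tested genes and a threshold of 0.05. The transporters and all gene lists were chosen with earlier results of these data known. Beside the 10 transporters, the genes named are fixed relatives, the 10 called transporters outside them with the largest differences and no overlap (of which 3 existed), up to 4 called genes with the smallest p per pathway list, and the 5 genes most like Slc15a2 and Slc7a5, leaving out predicted genes and antigen receptor segments.

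Exact ratios between FPKM values gave the relative read totals of the libraries and whole reads for 19416 of 19715 genes with a value (98.5 percent, tolerance 1e-05). The annotated lengths of mitochondrial genes then set the absolute totals. The implied lengths matched the annotation for 12 of 12 mitochondrial genes. Because these genes set the totals, that match is not an independent check of the scale. Replicates differed beyond counting noise, so none was counted as a repeat. The fit and the read recovery were tested on simulated data. Alternatives were other pseudocounts, filters and scalings, a replicate term, limma with neither trend nor robust moderation, limma-voom on recovered reads, and each library left out.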

Additional observations from a re-analysis of the deposited data

How the results depend on the processing

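No log2 difference of the 9 tested transporters changed sign in any alternative run, and 135 of their values moved by less than the spread between replicates. The others were Slc15a2 at 4.196 and 2.97 with pseudocounts of 0.1 and 0.5 and at 4.89 in limma-voom, and Slc1a5 and Slc38a2 with other scalings (−0.17 and 0.11). The transporters called higher numbered 3 to 4 and those called lower 2 to 3. Slc15a2 was not tested with a mean filter of 5. Leaving out each library gave 0 to 1 other transporters called lower, 4 to 6 genes of the amino acid response called higher, and 2 to 4 genes called in the mTORC1, enzyme and peptide sensing lists, where it was 2 without DMSO library 3. Without a filter on low values the numbers were 0 other transporters lower (limma; Slc38a9 had an adjusted p of 0.0938) and 4 amino acid response genes higher, and with FPKM as deposited 0 other transporters were lower, against 1 in limma-voom and 2 at an unadjusted p below 0.05 in the reported fit. In limma with neither trend nor robust moderation 2 genes of the last 3 lists were called. Slc7a7, not called, ranged from −0.103 to 0.076 with 1 library left out and was above 0 without lenvatinib library 3 (0.076) and without DMSO library 1 (0.024). The cause of these shifts was not tested. Over all genes, leaving out a library gave 761 to 848 called higher and 569 to 645 lower.

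Labels give both groups the replicate numbers 1 to 3, but same-numbered libraries did not deviate together, with correlations of −0.007 to 0.006 across genes. The main fit therefore did not pair them. These correlations cannot show whether same-numbered samples were handled together, which the labels do not state. With a replicate block 894 genes were called higher and 648 lower, and 0 other transporters lower (1 in the fit without it). Depth limits Slc15a2 in DMSO libraries and Slc7a11 in all 6, and intervals cover counting error only because reads without molecular identifiers are not independent molecules.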

Other observations

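Other marker lists were compared by their summed scaled FPKM. Neutrophil markers summed to 11.7 to 16.9 in lenvatinib libraries and 6.38 to 7.44 in DMSO libraries, with Ly6g, Cxcr2 and Csf3r below 1 in every library. Mast cell markers summed to 8.25 to 8.88 in lenvatinib and 2.07 to 2.67 in DMSO libraries, where Cpa3, Mcpt1, Mcpt4 and Cma1 were below 1 in every library. Kit was by far the largest term, with 8.33 ± 0.269 in lenvatinib and 1.75 ± 0.668 in DMSO libraries. The other mast cell genes did not share its rise. Mcpt4 and Cma1 were at 0 in all lenvatinib libraries and averaged 0.179 and 0.148 in DMSO libraries. Erythroid markers summed to 8.61 to 13.8 in lenvatinib and 3.38 to 4.66 in DMSO libraries. Fibroblast and smooth muscle markers summed to 3.25 to 4.47 in lenvatinib and 2.05 to 2.79 in DMSO libraries. Endothelial markers summed to 33.4 to 33.7 in lenvatinib and 42.3 to 43.1 in DMSO libraries, with Cdh5, Kdr, Flt1, Madcam1 and Vwf below 1 in every library. That sum was nearly all Pecam1, with 32.9 ± 0.161 in lenvatinib and 42.3 ± 0.567 in DMSO libraries. Plasma cell markers summed to 224 to 234 in lenvatinib and 237 to 242 in DMSO libraries, but single genes of the list went both ways. Irf4, the largest term, fell to 104.2 ± 0.537 in lenvatinib libraries, against 136.5 ± 1.8 in DMSO libraries. Jchain rose to 62.9 ± 4.36 in lenvatinib libraries, against 45.9 ± 2.5 in DMSO libraries. The other 3 tested genes did not pass. The ranges of plasmacytoid dendritic cell markers, 9.54 to 11.5 in lenvatinib and 8.95 to 9.67 in DMSO libraries, overlapped, as did those of enteric glia, 0.452 to 1.01 in lenvatinib and 0.726 to 1.46 in DMSO libraries.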
